A study of Mus musculus with 24 samples.

Results

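Germline genes of the piRNA pathway were followed in mouse embryonic stem cells (ESCs) that lack Tet proteins, before and after loss of the cytokine LIF. The group holds 10 genes chosen by symbol, Piwil2, Mov10l1, Mael, Ddx4, Tdrd1, Tdrd5, Tdrd9, Asz1, Dazl and Tex101, of 22926 symbols in the count tables, and all 10 were found in the tables of both days. This group and the other gene lists were chosen with earlier results of these data known. The shares of all genes given beside the counts are therefore descriptions and no independent test. RNA-seq libraries came from 12 clones at D0 (undifferentiated, with LIF) and 12 at D6 (6 days of LIF withdrawal), with 3 WT, 3 Tet1-/-, 2 Tet2-/-, 2 Tet1-/-:Tet2-/- (DKO) and 2 Tet1-/-:Tet2-/-:Tet3-/- (TKO) libraries on each day. All clones, WT included, derive from 1 feeder-free 129/SVj ESC line that carries EGFP behind an IRES at the Oct4 locus, and the knockouts are CRISPR/Cas9 indels in single clones picked after puromycin selection. Each library is 1 clone, so the p-values measure the spread between clones of 1 parental line. The clones of a genotype recur on both days, except that clone Tet1_KO_2.3 has a D0 library and clone Tet1_KO_2.2 a D6 library alone. The D6 column taken as clone DKO_5.12 is labelled DKO_512, without the point.

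PIWI-interacting RNAs (piRNAs) are small RNAs that guide PIWI proteins to transposon transcripts and to transposon DNA in germ cells. Piwil2 (MILI) is a PIWI protein, Mov10l1 is the RNA helicase that feeds precursors into piRNA production, and Mael acts in transposon silencing and in the cytoplasmic granules called nuage. Ddx4 (the mouse Vasa helicase) and the Tudor domain proteins Tdrd1, Tdrd5 and Tdrd9 build or work in the same granules, and Asz1 (GASZ) anchors them at mitochondria. Dazl is an RNA-binding translational regulator and Tex101 a surface glycoprotein of germ cells, and neither is a piRNA enzyme. In somatic cells such genes are held silent by DNA methylation of CpG-rich promoters and by E2F6 and MGA-MAX complexes, and Tet proteins oxidise 5-methylcytosine at CpG sites.

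For that reason the promoters are shown before the values. RefSeq promoter sequences (assembly GRCm38.p6) were at hand for 9 of the 10 genes, all but Piwil2. Below are the 250 bases upstream of the start site, 5′ to 3′ on the gene's own strand, for the 3 genes that were lower in Tet2-/- ESCs at D0 (Dazl, Mael and Tdrd5) and for Tdrd1, which was not called there; capitals mark CpG sites.
Dazl, chr17:50293621-50293870, minus strand: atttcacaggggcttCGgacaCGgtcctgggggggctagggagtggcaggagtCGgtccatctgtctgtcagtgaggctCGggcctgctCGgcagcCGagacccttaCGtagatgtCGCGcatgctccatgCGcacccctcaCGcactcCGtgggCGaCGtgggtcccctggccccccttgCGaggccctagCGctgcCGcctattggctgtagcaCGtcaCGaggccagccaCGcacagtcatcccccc
Mael, chr1:166238745-166238994, minus strand: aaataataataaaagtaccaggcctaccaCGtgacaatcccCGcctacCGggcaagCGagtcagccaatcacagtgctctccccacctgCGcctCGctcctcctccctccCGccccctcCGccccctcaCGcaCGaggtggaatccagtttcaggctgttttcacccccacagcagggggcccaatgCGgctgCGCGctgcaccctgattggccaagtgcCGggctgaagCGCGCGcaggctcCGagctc
Tdrd5, chr1:156303349-156303598, minus strand: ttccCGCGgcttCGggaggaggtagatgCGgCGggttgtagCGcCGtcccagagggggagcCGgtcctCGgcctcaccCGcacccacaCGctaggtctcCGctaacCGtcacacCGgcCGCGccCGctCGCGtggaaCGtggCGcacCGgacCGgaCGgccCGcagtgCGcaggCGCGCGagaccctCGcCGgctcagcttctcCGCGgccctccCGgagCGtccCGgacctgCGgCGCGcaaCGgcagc
Tdrd1 (the first of 3 listed promoters), chr19:56825959-56826208, plus strand: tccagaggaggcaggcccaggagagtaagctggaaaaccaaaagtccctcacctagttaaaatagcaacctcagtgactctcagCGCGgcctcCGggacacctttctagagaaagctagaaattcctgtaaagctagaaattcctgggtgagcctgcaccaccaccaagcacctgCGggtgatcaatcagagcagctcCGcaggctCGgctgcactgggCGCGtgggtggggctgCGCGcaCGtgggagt
The Tdrd5 window holds 40 CpG sites, the Dazl window 20, the Mael window 18 and the Tdrd1 window 11, where the median of 32851 mouse promoters is 6. As a ratio of observed to expected CpG, which corrects for base composition, Tdrd5 stood at 1.14, Ddx4 at 1.00, Asz1 at 0.901, Mael at 0.750, Mov10l1 at 0.748, Dazl at 0.710, Tex101 at 0.639, Tdrd1 at 0.531 and Tdrd9 at 0.427. The median over all promoters was 0.374, and 7 of the 9 genes reached a ratio of 0.6, as 34% of all promoters did. Of the 3 Tudor genes, Tdrd1 and Tdrd9 were below that mark and Tdrd5 had the highest ratio. Ddx4, at 1.00 with 31 CpG sites, lay above Dazl and Mael in ratio. Like Tdrd1 it was not called in Tet2-/- at D0 (log2 -0.47, edgeR adjusted p = 0.129). A relation of CpG content to the changes in RNA was not tested.

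**Figure D1:**
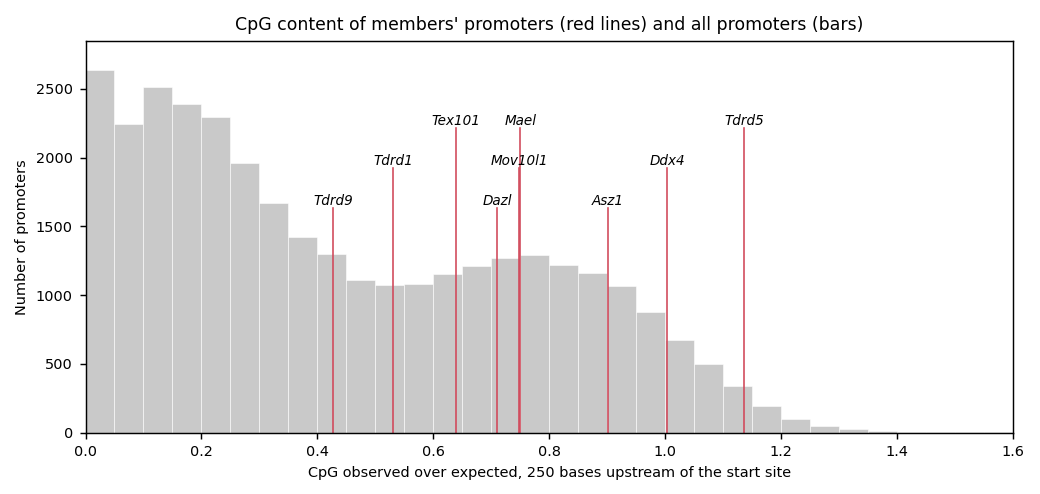
CpG observed over expected (horizontal axis, a ratio with no unit) in the 250 bases upstream of start sites: bars count all 32851 promoters (vertical axis, number of promoters) and red lines mark the 9 genes with a sequence. Tdrd9 and Tdrd1 lie left of 0.6, and Ddx4 and Tdrd5 lie at 1.00 and 1.14.

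The E-box CACGTG, its own reverse complement and the core site of MGA-MAX, was found in 5 of the 9 windows (Ddx4, Mael, Tdrd1, Mov10l1 and, with 2 matches, Tdrd9), against 6.02% of all promoters and 9.49% of those at a CpG ratio of 0.6 or more. In Mael the E-box starts 223 bases and in Ddx4 29 bases upstream of the start site, in Mov10l1 246 bases and in Tdrd1 11 bases upstream. The E2F motif GCGGGA, searched on both strands (TCCCGC on the other), was in 3 windows, those of Ddx4, Mael and Tdrd5, against 16.9% of all promoters and 37.5% of the CpG-rich ones. Neither motif overlaps the other in letters, and both hold a CpG, so that CpG-rich windows match them more often. Dazl, Asz1 and Tex101 held neither. These matches describe the letters only; binding and methylation were not analysed here.

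On the mm9 build used for the counts, the genes lie on 9 chromosomes (gene annotation GENCODE M1). Dazl spans chr17:50418719-50432924, Ddx4 chr13:113388541-113442518, Mael chr1:168131516-168168875, Piwil2 chr14:70772287-70828901, Tdrd5 chr1:158185426-158233795, Asz1 chr6:18000964-18059061 and Tex101 chr7:25453031-25457069, all on the minus strand. Tdrd1 (chr19:56900699-56944502), Tdrd9 (chr12:113209770-113307065) and Mov10l1 (chr15:88813339-88885582) are on the plus strand. Tdrd9 shares 1429 bases with the protein-coding gene BC048943 on the opposite strand, and since the strand setting of the counting is not given in the sources used here, reads there cannot be assigned between the 2 genes. Dazl, Ddx4 and Tdrd5 have 2 lines each in the tables and Tdrd1 has 4, of which the uppermost line was taken.

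Depth was 18400463 to 37290208 counts per library. Values below are CPM, the read count as a share of the library's scaled total (TMM), and a gene was called where the edgeR adjusted p was under 0.05 and the change was past 2-fold. The Tet genes were read as a check of the labels, with the limit that an indel need not lower the RNA: Tet2 stood at 87.9 to 94.0 CPM in WT, 20.9 to 23.2 CPM in Tet2-/-, 22.3 to 55.7 CPM in DKO and 8.16 to 42.5 CPM in TKO clones at D0. At D6 Tet2 RNA did not separate Tet2-/- or TKO from WT, at 12.3 to 16.0 CPM in WT and 15.9 and 16.6 CPM in Tet2-/- (log2 0.23 ± 0.25, edgeR adjusted p = 0.506) and 16.2 and 10.5 CPM in TKO. Both DKO clones, at 9.99 and 5.73 CPM, lay below every WT clone (log2 -0.80 ± 0.26, edgeR adjusted p = 0.231). At D0 Tet3 stood at 2.84 and 4.43 CPM in TKO and 5.05 to 7.94 CPM in WT. Tet1 did not separate the genotypes, with 220 to 431 CPM in WT and 93.4 to 358 CPM in Tet1-/- clones, and the 2 TKO clones differed widely, at 568 CPM in clone TKO_8.4 and 41.7 CPM in clone TKO_8.12. The ESC markers Pou5f1 and Nanog were present in all D0 groups (group means of 673 to 836 and 543 to 718 CPM). A list of 12 germ cell markers summed to 456 to 579 CPM at D0 and 366 to 594 CPM at D6, with at most 2 of them at 0 in a library. Most of that sum came from genes such as Kit (129 CPM in WT at D0), Dazap1 (147) and Ifitm1 (104). Undifferentiated WT ESCs hold these transcripts, so the sum by itself does not mark germ cells. Figla and Nobox, which mark oocytes, had means of at most 0.275 and 0.208 CPM in all groups.

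In undifferentiated WT ESCs 6 of the 10 genes stood above 1 CPM per kilobase of exon. On that scale the means over 3 WT clones were 11.6 CPM for Ddx4, 10.7 for Mael, 6.61 for Piwil2, 6.26 for Dazl, 4.48 for Mov10l1 and 1.30 for Tdrd5. Tdrd1 (0.680), Tex101 (0.649), Tdrd9 (0.136) and Asz1 (0.0542) followed. The neighbours Ddx4 and Mael (SD 1.52 and 3.33) and Piwil2 and Dazl (SD 0.686 and 2.66) overlapped between clones. Asz1 had 0 to 8 counts in the 24 libraries, too few for the filter, so that 9 genes were tested in every comparison and nothing can be said of changes in Asz1; 3 counts were worth 0.0805 to 0.163 CPM. Tex101 and Tdrd9, never above 0.907 and 0.844 CPM, are thinly counted as well.

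**Figure D2:**
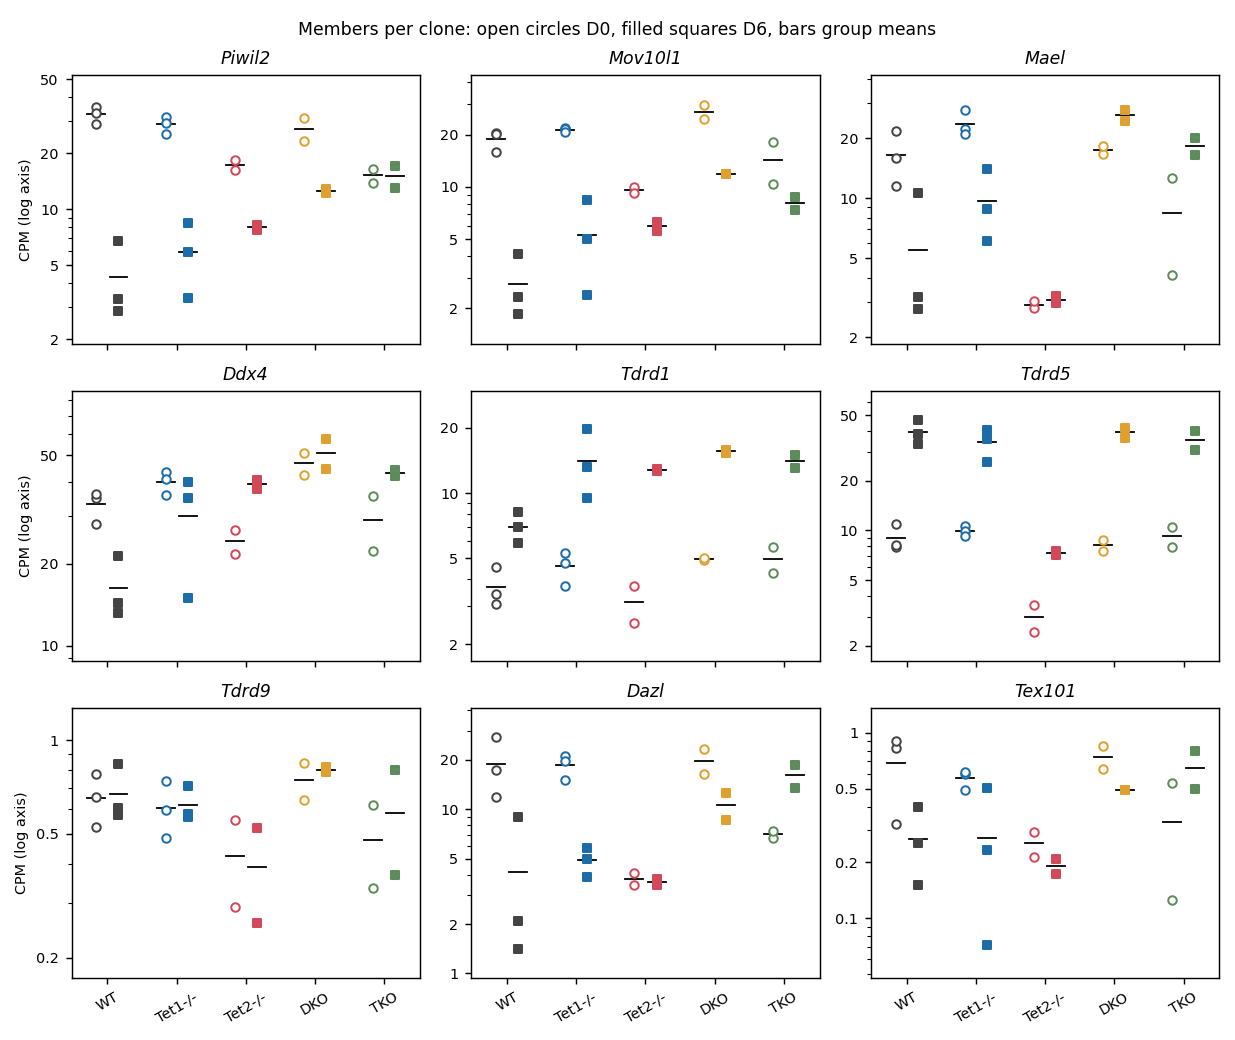
CPM per clone on a log axis for the 9 tested genes, by genotype, with D0 as open circles, D6 as filled squares and a bar at each group mean (2 or 3 clones). At D0 Dazl, Mael and Tdrd5 are lowest in the 2 Tet2-/- clones, and Piwil2 and Mov10l1 fall furthest in WT.

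At D0, 3 of 9 tested genes were called lower in Tet2-/- cells. They were Dazl, Mael and Tdrd5, and all 9 tested genes had a log2 fold change below 0, with a median of -0.99 against -0.01 over all 14456 genes. Of all genes, 2.37% were called lower, 0.816% higher and 3.19% in either direction. In bulk libraries, fewer cells that express a gene and less RNA per cell cannot be told apart. Markers of 2-cell-like cells, a rare state in ESC cultures marked by Zscan4 genes, moved with the group at D0: 4 of 7 tested were lower in Tet2-/- (median log2 change -2.28) and 4 of 7 in TKO (-2.66). The summed CPM of the 9 listed was 3.31 to 7.86 in WT, 0.725 and 1.46 in Tet2-/-, 0.824 and 1.00 in TKO, 5.45 to 6.57 in Tet1-/- and 10.2 and 17.0 in DKO, with 2 of the 9 at 0 in each Tet2-/- library and 3 in each TKO library. Zscan4c, Zscan4d and Zscan4f are near-identical copies whose reads may be split between them, and the part of this list in the results was not tested. The summed CPM of 8 endoderm markers was 82.4 to 126 in WT, 199.5 and 225 in Tet2-/- and 222 and 148 in TKO, with 2 of the 8 at 0 in each of these libraries. Of 5 tested, Col4a1 was called higher in Tet2-/- (log2 1.07), and 4 had an unadjusted p under 0.05 in TKO with 0 called. In TKO 1 of 7 mesoderm and 1 of 4 neuroectoderm markers were called higher, and 8 of 12 ESC markers had an unadjusted p under 0.05 (median log2 change -0.28) with 0 called. The part of these markers was not tested either.

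Dazl stood at 11.8, 27.6 and 17.2 CPM in WT clones O4.1, O4.2 and O4.13 and at 4.096 and 3.48 CPM in Tet2-/- clones Tet2_KO_3.10 and Tet2_KO_3.11. Both Tet2-/- clones lay below every WT clone, and the fold change was 5.07-fold lower (log2 -2.34 ± 0.33 SE, edgeR adjusted p = 0.00465). Mael stood at 11.6, 21.9 and 15.9 CPM in WT and at 2.82 and 3.04 CPM in Tet2-/-. The 2 knockout clones were close together and far from WT, 5.68-fold lower (log2 -2.51 ± 0.41, edgeR adjusted p = 0.00820). Tdrd5, the Tudor protein that male germ cells need to form nuage, stood at 7.92, 11.0 and 8.21 CPM in WT and 3.54 and 2.43 CPM in Tet2-/- without overlap (log2 -1.63 ± 0.23, edgeR adjusted p = 0.00465).

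The PIWI protein and its helicase moved less. Piwil2 went from 28.8, 35.4 and 33.2 CPM in WT to 18.4 and 16.2 CPM in Tet2-/-, and Mov10l1 from 15.9, 20.5 and 20.3 CPM to 10.03 and 9.26 CPM. Neither gene's clones overlapped with WT, and both had edgeR adjusted p-values under 0.05 (0.0105 and 0.0185) with changes of 1.90-fold and 1.99-fold, just short of the fold limit. Ddx4 (log2 -0.47, adjusted p = 0.129), Tex101 (-1.41, 0.120), Tdrd9 (-0.69, 0.285) and Tdrd1 (-0.25, 0.536) were not called. In 7 of the 9 genes both Tet2-/- clones lay below all WT clones, which 26.4% of all genes did. With only 2 Tet2-/- clones these calls need both: without clone Tet2_KO_3.10 Tdrd5 alone was called (36 genes in all), without clone Tet2_KO_3.11 none of the group (5 genes in all), and without WT clone O4.1, the lowest WT clone for all of these genes but Tdrd1, 6 were called.

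In the TKO clones, which also lack Tet2, 2 genes were called lower at D0. Dazl stood at 6.73 CPM in clone TKO_8.4 and 7.38 CPM in clone TKO_8.12, below every WT clone and 2.68-fold lower (log2 -1.42 ± 0.31, edgeR adjusted p = 0.0184). Piwil2 stood at 16.6 and 13.9 CPM, likewise without overlap, 2.13-fold lower (log2 -1.09 ± 0.16, edgeR adjusted p = 0.00471). That is 2 of 9 genes, against 2.12% of all genes called lower, 1.03% higher and 3.15% in either direction. Mael differed between the clones, at 4.14 CPM in TKO_8.4 and 12.7 CPM in TKO_8.12, of which the second lies within the WT range (log2 -0.97 ± 0.37, adjusted p = 0.117). Tdrd5, so low in Tet2-/-, was at 7.98 and 10.5 CPM in TKO and overlapped with WT (log2 0.03 ± 0.21). Both calls fell away when the 24 libraries of both days were fitted together (Dazl -1.42, edgeR adjusted p = 0.111; Piwil2 -1.09, 0.0526), and Piwil2 slipped to a log2 change of -0.97 without clone TKO_8.12.

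Loss of Tet1 alone or of Tet1 and Tet2 together gave no call in the group at D0. The median log2 change over the 9 genes was 0.11 in Tet1-/- (all genes 0.00) and 0.11 in DKO (all genes -0.01), and edgeR called 1 gene of 14456 in Tet1-/- (0.00692%) and 5 in DKO (0.0346%; 0.0138% higher and 0.0208% lower). At an unadjusted p under 0.05, 0 of 9 genes differed in Tet1-/- (12.6% of all genes) and 2 in DKO (14.4%), Ddx4 (log2 0.49 ± 0.19) and Mov10l1 (0.51 ± 0.20), both higher. DESeq2 also called 0 of the group in each (52 and 111 genes in all). Dazl, for example, was at 15.2, 21.2 and 19.6 CPM in Tet1-/- clones Tet1_KO_2.1, Tet1_KO_2.3 and Tet1_KO_2.4 and at 16.3 and 23.2 CPM in DKO clones DKO_5.11 and DKO_5.12, within the WT range. Mael was at 22.3, 27.95 and 21.02 CPM in Tet1-/-, where 1 clone lay below the highest WT clone.

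Set against each other at D0, the Tet2-/- clones were lower than Tet1-/- and than DKO for the same 4 genes, while Tet2-/- and TKO were not compared by a test. Against Tet1-/-, Dazl (log2 -2.30), Mael (-3.01), Tdrd5 (-1.74) and Mov10l1 (-1.15) were lower in Tet2-/-, 4 of 9 genes where 3.55% of all genes were, with edgeR adjusted p-values of 0.00138 to 0.00555. Against Tet2-/-, these 4 genes were higher in DKO, Dazl by 2.39, Mael by 2.59, Tdrd5 by 1.47 and Mov10l1 by 1.503 on the log2 scale (edgeR adjusted p = 0.00273 to 0.00430, background 3.20%). With 1 library left out, Mov10l1 against Tet1-/- was lost without either Tet2-/- clone, and against DKO, Mael was lost without clone Tet2_KO_3.10 and Tdrd5 without clone DKO_5.11. So the double mutants, although Tet2 was targeted in them too, were not low for these genes, and all 9 genes were above Tet2-/- in both DKO clones (36.4% of all genes were). The 7 tested markers of 2-cell-like cells were also all called higher in DKO than in Tet2-/- (median log2 change 3.59), and 1 of 12 ESC and 1 of 7 mesoderm markers were too. In Tet2-/- against Tet1-/-, 3 of 7 markers of 2-cell-like cells, 2 of 7 mesoderm and 1 of 12 ESC markers were lower, and in TKO against DKO 5 of 7 markers of 2-cell-like cells (median -3.70). The part of these markers in the differences between knockouts was not tested. DKO and Tet1-/- did not differ by any call (0 of 14456 genes; 0 of the 9 at an unadjusted p under 0.05, as 6.33% of all genes; 0 of the 9 by DESeq2). TKO was below DKO for Dazl alone (log2 -1.47 ± 0.33, edgeR adjusted p = 0.0455, background 0.678%); that call was lost in 8 of 12 fits that left out a library, either DKO clone, any Tet1-/- clone, either Tet2-/- clone or WT clone O4.13, of which only the DKO clones are in the comparison, and without clone TKO_8.12, 5 genes were called.

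**Figure D3:**
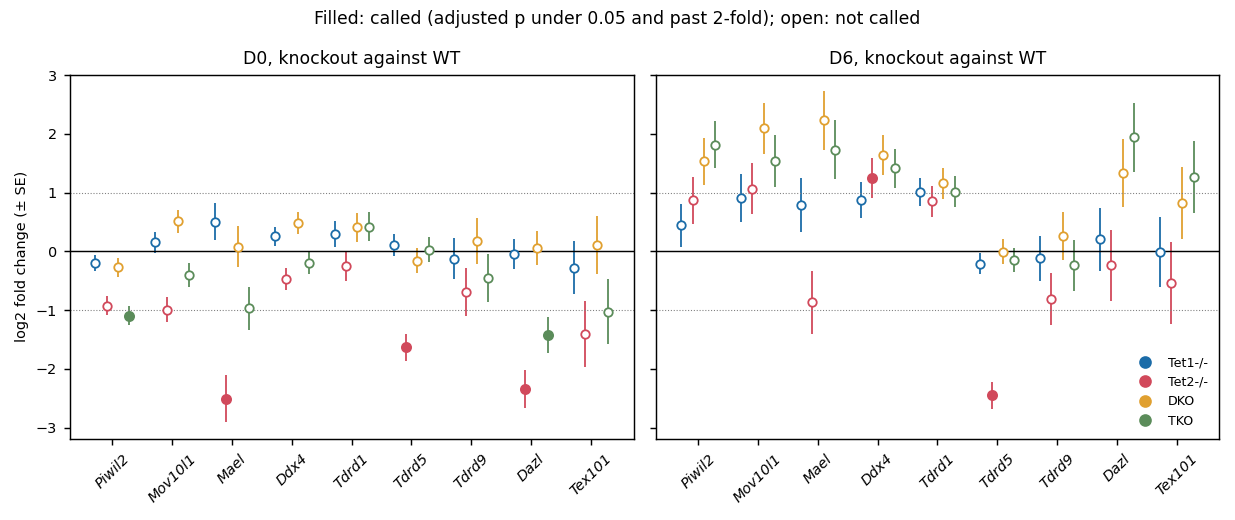
Log2 fold change of each knockout against WT of the same day (vertical axis, ± SE) for the 9 tested genes, with filled points for called genes and dotted lines at 2-fold. At D0 the Tet2-/- points lie below 0 for all 9 genes, and at D6 most DKO and TKO points lie above 0 but are not called.

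Over 6 days of LIF withdrawal in WT, 6 of 9 tested genes were called lower at D6 (13.3% of all 15639 genes were) and 1, Tdrd5, was higher (20.7%). All 12 ESC markers and 6 of 7 markers of 2-cell-like cells (median log2 change -3.48) were lower in WT at D6. All 8 mesoderm and 4 of 6 endoderm markers were higher, and 1 endoderm marker was lower. Of 4 neuroectoderm markers 1 was higher and 2 lower, and of 10 germ cell markers 1 was higher and 2 lower. These lists changed over the same 6 days as the group, and their part in the result was not tested.

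Piwil2 fell most, from 28.8 to 35.4 CPM at D0 to 6.79, 2.82 and 3.31 CPM at D6 in clones O4.2, O4.1 and O4.13 (7.48-fold, log2 -2.90 ± 0.30, edgeR adjusted p = 1.36e-07). Mov10l1 followed from 15.9 to 20.5 CPM down to 4.14, 1.87 and 2.32 CPM (log2 -2.75 ± 0.34, edgeR adjusted p = 1.23e-06). The days did not overlap for either gene, and clone O4.2 kept the most RNA of both.

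Dazl fell to 8.97, 1.41 and 2.101 CPM (log2 -2.17 ± 0.45, edgeR adjusted p = 0.000374) and Mael to 10.6, 2.77 and 3.18 CPM (log2 -1.56 ± 0.43, edgeR adjusted p = 0.00373), in the same clone order. For both, O4.2 stood far above the other WT clones at D6. Ddx4 fell to 21.3, 14.4 and 13.2 CPM (log2 -1.02 ± 0.27, edgeR adjusted p = 0.00253), a change close to the fold limit that was under it by DESeq2 and by other scalings. Tex101 fell by 1.30 on the log2 scale (edgeR adjusted p = 0.0425) with overlapping clones, a call that was lost in 12 of 24 fits with 1 library left out.

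Tdrd5 rose in WT from 7.92 to 11.0 CPM up to 33.4, 46.5 and 38.4 CPM (log2 2.12 ± 0.20, edgeR adjusted p = 3.76e-08), with the days far apart. Tdrd1, the Tudor partner of Piwil2, stood at 3.09 to 4.58 CPM at D0 and, without overlap, at 8.20, 6.96 and 5.86 CPM at D6, a 1.89-fold difference just under the limit (log2 0.92 ± 0.24, edgeR adjusted p = 0.00255). Tdrd9 was at 0.525 to 0.777 CPM at D0 and 0.573 to 0.835 CPM at D6 (log2 0.04 ± 0.36).

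The knockouts, with 2 or 3 clones each, were tested in the same way, and whether they differ from WT is given by the interaction test further on. In Tet1-/-, Dazl (log2 -1.93), Mael (-1.30), Piwil2 (-2.27) and Mov10l1 (-2.01) were lower at D6, 4 of 9 genes (11.2% of all genes), and Tdrd1 and Tdrd5 were higher by 1.62 and 1.79 (19.9%; either direction 31.1%). In DKO, Piwil2 (-1.11) and Mov10l1 (-1.19) were lower (10.6% of all genes). In Tet2-/- only Piwil2 was called lower (-1.11; 6.44%, either direction 19.1%), and in TKO no gene was (8.63%, either direction 25.4%). With clone as a block, which pairs the 2 days, Mael in Tet1-/- slipped under the fold limit (-0.96). With library totals in place of TMM, the 2 DKO falls did too (-0.91 and -0.98), as did Piwil2 in Tet2-/- (-0.97). Without clone DKO_5.11 on either day the DKO calls went from 4 to 2, with Piwil2 and Mov10l1 lost, and Mov10l1 was also lost without D6 clone DKO_5.12. The Piwil2 call in Tet2-/- was lost without D0 clone Tet2_KO_3.10 or either D6 clone. Marker lists changed over the same days in Tet1-/-, Tet2-/- and DKO. ESC markers were lower (11, 7 and 10 of 12) and mesoderm markers higher (8, 3 and 6 of 8). Of 7 markers of 2-cell-like cells 3, 0 and 1 were lower. Of 6 endoderm markers 4, 2 and 4 were higher and 1 lower in each. Of 4 neuroectoderm markers 1, 2 and 1 were higher and 2, 0 and 2 lower. The part of these lists was not tested.

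Piwil2 was at 16.6 and 13.9 CPM at D0 and 17.1 and 13.03 CPM at D6 in TKO clones TKO_8.4 and TKO_8.12, a log2 change of -0.01 ± 0.34. In TKO Dazl stood at 6.73 and 7.38 CPM at D0 and 13.4 and 18.7 CPM at D6, and Mael at 4.14 and 12.7 CPM and then 16.6 and 20.2 CPM. Each of these 2 genes was higher in both D6 libraries than in both D0 libraries, at edgeR adjusted p-values of 0.0730 and 0.0768; with clone as a block both were called higher, which brought the TKO calls from 2 to 4. In TKO 4 of 7 markers of 2-cell-like cells (median log2 change 2.33) and 5 of 8 mesoderm markers were also higher at D6 and 11 of 12 ESC markers lower. Of 10 tested germ cell markers 3 were higher and 1 lower. The part of these lists was not tested. Mael held its low level in Tet2-/-, at 2.82 and 3.04 CPM at D0 and 3.23 and 2.96 CPM at D6, and so did Dazl, at 4.096 and 3.48 CPM and then 3.46 and 3.77 CPM.

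Tdrd1 and Tdrd5, but not Tdrd9, were called higher at D6 in every knockout. Tdrd1 was higher at D6 on the log2 scale by 1.62 (Tet1-/-), 2.02 (Tet2-/-), 1.66 (DKO) and 1.51 (TKO), and Tdrd5 by 1.79, 1.31, 2.26 and 1.94, each at an edgeR adjusted p of 0.000505 or below. Higher calls made up 12.7% of all genes in Tet2-/-, 18.6% in DKO and 16.8% in TKO. Tdrd5 started low in Tet2-/- and, at 7.52 and 7.08 CPM at D6, ended below the D0 level of all 3 WT clones.

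**Figure D4:**
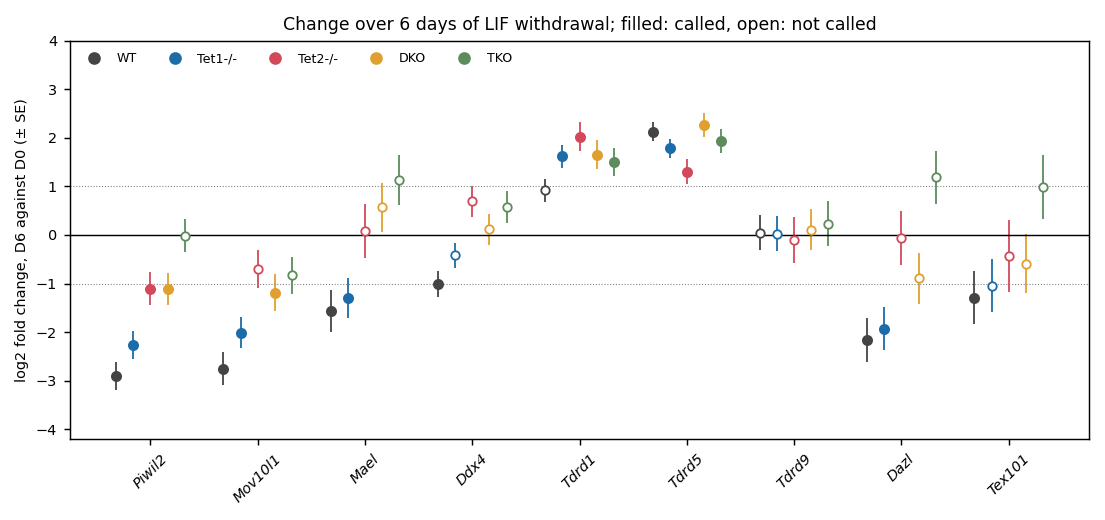
Log2 fold change of D6 against D0 within each genotype (vertical axis, ± SE) for the 9 tested genes, filled where called, with dotted lines at 2-fold. Piwil2 and Mov10l1 lie lowest in WT at -2.90 and -2.75, and Tdrd5 lies above 1 in all 5 genotypes.

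At D6 edgeR called no gene of the group in Tet1-/-, DKO or TKO against WT, and 2 in Tet2-/-, 1 in each direction. In Tet2-/-, Ddx4 was higher, at 37.8 and 40.6 CPM against 21.3, 14.4 and 13.2 CPM in WT clones O4.2, O4.1 and O4.13 (log2 1.24 ± 0.34, edgeR adjusted p = 0.0221). The groups did not overlap. Higher calls were 1 of 9 genes, against 4.81% of all genes.

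Tdrd5 was lower in Tet2-/-, at 7.52 and 7.08 CPM against 33.4, 46.5 and 38.4 CPM, 5.46-fold and again without overlap (log2 -2.45 ± 0.23, edgeR adjusted p = 0.00237). Lower calls were 1 of 9, against 9.45% of all genes, so that the number of calls in the group is near that of all genes. Tdrd1 (12.9 and 12.7 CPM against 8.20, 6.96 and 5.86 CPM) was 1.81-fold higher, under the limit (edgeR adjusted p = 0.0350). Without Tet2-/- clone Tet2_KO_3.11 neither call held (0 genes in all were called). Ddx4 was also lost without clone Tet2_KO_3.10, WT clone O4.1 or O4.13, and without WT clone O4.2, 5 genes were called.

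In DKO and TKO no gene passed the edgeR test against WT at D6, in the group or among all 15435 genes (0%), at an unadjusted p under 0.05 6 of 9 did in each (14.6% of all genes in DKO and 23.5% in TKO), and DESeq2 called 5 in DKO and 6 in TKO, all higher (189 and 481 genes in all). The median log2 change over the 9 genes was 1.34 in DKO and 1.41 in TKO, where that of all genes was -0.01 and 0.02. Mael stood at 24.4 and 27.9 CPM in DKO clones DKO_5.11 and DKO_5.12 and 16.6 and 20.2 CPM in TKO clones TKO_8.4 and TKO_8.12, against 10.6, 2.77 and 3.18 CPM in WT (log2 2.23 ± 0.50 and 1.73 ± 0.50, edgeR adjusted p = 0.171 and 0.0898). Mov10l1 stood at 11.9 CPM in both DKO clones and 7.35 and 8.74 CPM in TKO against 4.14, 1.87 and 2.32 CPM in WT. Both knockouts lay above every WT clone for both genes, O4.2 included.

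Piwil2 was at 12.2 and 12.9 CPM in DKO and 17.1 and 13.03 CPM in TKO against 6.79, 2.82 and 3.31 CPM in WT (log2 1.53 ± 0.40 and 1.81 ± 0.40, edgeR adjusted p = 0.202 and 0.0643). Dazl was at 8.58 and 12.7 CPM in DKO, which overlaps WT clone O4.2 at 8.97 CPM, and at 13.4 and 18.7 CPM in TKO, which does not. Counted over the group, 6 of 9 genes in DKO and 7 of 9 in TKO lay above WT in all clones, where 18.7% and 17.1% of all genes did. Tdrd5 (log2 0.00 and -0.14) and Tdrd9 (0.26 and -0.24) overlapped with WT in both.

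The calls in these 2 comparisons changed with single libraries and with the fit. Without O4.2, edgeR called Dazl and Mael higher in DKO (6 genes in all) and 6 genes of the group higher in TKO (721 in all). With the 24 libraries of both days in 1 fit, 5 genes were called higher in DKO (Ddx4, Mael, Mov10l1, Piwil2 and Tdrd1) and the same 5 and Dazl in TKO. Without Tet1-/- clone Tet1_KO_2.2, which is in neither comparison, 2 and 4 were called, and without Tet1-/- clone Tet1_KO_2.4, 3 in TKO. In Tet1-/- at D6, 0 of 9 genes and 0 of all genes were called (3 of 9 at an unadjusted p under 0.05, as 12.6% of all genes, 1 of 9 by DESeq2, Tdrd1), and the clones spread widely, with Ddx4 at 35.0, 14.96 and 39.8 CPM in clones Tet1_KO_2.1, Tet1_KO_2.2 and Tet1_KO_2.4.

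The D6 libraries also differed in their state of differentiation. The summed CPM of 12 ESC markers was 2303 in WT clone O4.2 and 1226 and 1364 in O4.1 and O4.13, and that of 8 mesoderm markers 309 in O4.2 against 781 and 950. Tet1-/- clone Tet1_KO_2.2, the lowest Tet1-/- clone for most of the group, had the lowest ESC sum (1511) and the highest mesoderm sum (1026) of its genotype. DKO, with the highest levels of Mael, Ddx4 and Mov10l1, had ESC sums of 1886 and 1835, both below that of WT clone O4.2. Mesoderm sums were 452 and 289 in clones DKO_5.11 and DKO_5.12. Clones TKO_8.4 and TKO_8.12 had ESC sums of 2281 and 2010 and mesoderm sums of 178.5 and 483.5. Against WT the median log2 change of 8 mesoderm markers was -1.85 in DKO and -2.39 in TKO, with 4 and 5 at an unadjusted p under 0.05. That of 6 endoderm markers was -0.69 and -1.80, with 2 and 4. By edgeR 0 of these were called. Tet2-/- had the highest ESC sums (3029 and 3247) and the lowest mesoderm sums (111 and 78.1), and against WT all 8 mesoderm and 3 of 6 endoderm markers were called lower in it and 3 of 12 ESC and 3 of 4 neuroectoderm markers higher. Of the 9 tested genes of the group, 4 lay above every WT clone in Tet2-/- at D6 (Ddx4, Piwil2, Tdrd1 and Mov10l1; 31.4% of all genes did) and 2 below (Tdrd5 and Tdrd9; 31.6%). Among the germ cell markers Dppa3 reached 66.2 and 12.98 CPM in the 2 TKO libraries at D6, and at most 6.87 CPM in other D6 libraries. Of 11 tested germ cell markers 0 were called in TKO or DKO against WT at D6, with 3 and 2 at an unadjusted p under 0.05. In Tet2-/- 1 was called higher and 3 lower. The 2-cell-like sum was 0.363 to 0.807 CPM in WT at D6, 10.1 and 4.97 CPM in clones DKO_5.11 and DKO_5.12 and 7.48 CPM in clone TKO_8.4. In clone TKO_8.12 it was 0.849 CPM. Of the 9 tested genes of the group, 6 were higher in TKO_8.12 than in TKO_8.4 and 3 (Piwil2, Tdrd1 and Tex101) were lower. All 6 tested markers of that list had an unadjusted p under 0.05 in DKO and in TKO against WT, with 0 called by edgeR. The part of these markers in the results was not tested.

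**Figure D5:**
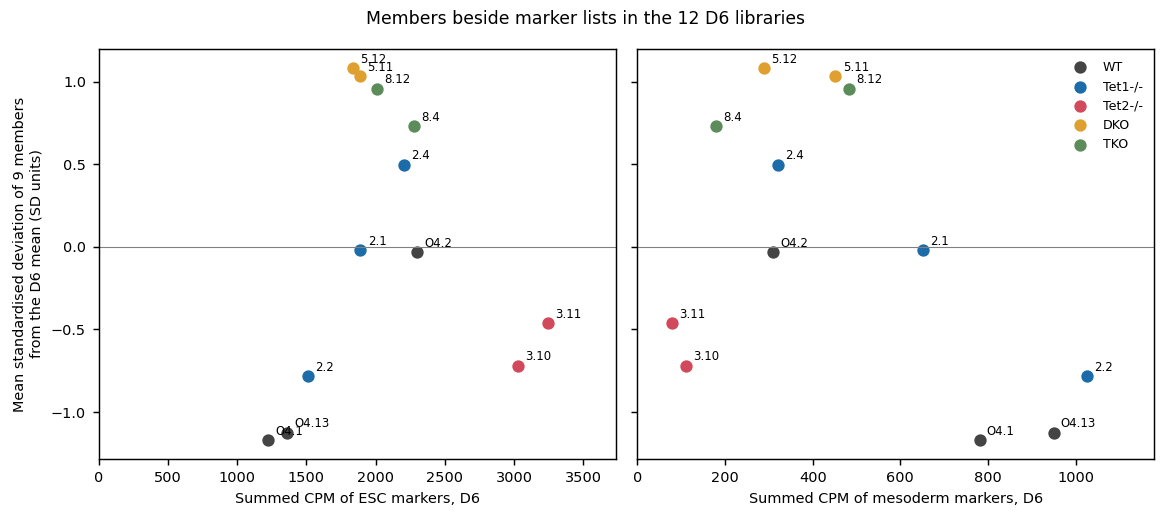
Mean standardised deviation of the 9 tested genes from the D6 mean (vertical axis, SD units) against the summed CPM of ESC markers (left) and of mesoderm markers (right) in the 12 D6 libraries, labelled by clone. WT clones O4.1 and O4.13 lie at -1.17 and -1.13 with low ESC sums, and DKO lies at 1.035 and 1.084 with ESC sums of 1886 and 1835.

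Against each other at D6, Tet2-/- differed from Tet1-/- by Tdrd5 (log2 -2.24 ± 0.23, edgeR adjusted p = 0.00302; 4.48% of all genes lower) and from DKO by Mael and Tdrd5. Mael was higher in DKO than in Tet2-/- by 3.095 ± 0.60 and Tdrd5 by 2.45 ± 0.24 on the log2 scale (edgeR adjusted p = 0.00932 and 0.00132; 6.37% of all genes higher). The Mael call was lost without clone DKO_5.12, Tet2_KO_3.10 or Tet2_KO_3.11, which left 1 gene, Tdrd5, called, and the Tdrd5 call against Tet1-/- was lost without clone Tet2_KO_3.11, which left 0. DKO against Tet1-/- and TKO against DKO gave 0 calls in the group and over all genes by edgeR, with 4 and 0 of 9 genes at an unadjusted p under 0.05 (5.34% and 8.27% of all genes) and 0 of 9 by DESeq2 in each. All 9 genes were above Tet2-/- in both DKO clones at D6 as well, as 36.6% of all genes were. Marker lists differed in the same comparisons. Against Tet1-/-, Tet2-/- was lower for 7 of 8 mesoderm and 2 of 6 endoderm markers and higher for 2 of 4 neuroectoderm and 1 of 12 ESC markers. Against Tet2-/-, DKO was higher for 5 of 6 markers of 2-cell-like cells, 3 of 8 mesoderm and 2 of 6 endoderm markers, and lower for 2 of 4 neuroectoderm and 1 of 12 ESC markers. Of 11 germ cell markers, 1 was higher and 2 lower in Tet2-/- than in Tet1-/-, and 3 were higher and 1 lower in DKO than in Tet2-/-. The part of these lists was not tested.

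Whether a knockout's effect differed between the days was tested as an interaction, the change over LIF withdrawal in the knockout minus that in WT. In TKO 5 of 9 genes were called, all positive, where 1.84% of all genes were (3.58% in either direction): Dazl (log2 3.35 ± 0.70, edgeR adjusted p = 0.0125), Piwil2 (2.89 ± 0.45, 0.00373), Mael (2.69 ± 0.67, 0.0261), Mov10l1 (1.92 ± 0.51, 0.0326) and Ddx4 (1.596 ± 0.42, 0.0317). In Tet2-/- 3 of 9 were called, all positive, where 3.54% of all genes were positive, 5.13% negative and 8.68% either: Mov10l1 (2.06 ± 0.51, 0.0134), Piwil2 (1.79 ± 0.44, 0.0133) and Ddx4 (1.71 ± 0.42, 0.0125). Dazl (2.099, adjusted p = 0.0526) and Tdrd1 (1.101, 0.0529) came close in Tet2-/-, and with clone as a block 6 genes were called there, adding Dazl, Mael and Tdrd1.

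For the 5 genes called in TKO and the 3 in Tet2-/-, WT fell over the 6 days while the knockout fell less or had a change above 0, and the knockout's mean at D0 was below that of WT. Piwil2 is the plainest case, with 32.5 ± 3.4 CPM (SD, n = 3) at D0 and 4.31 ± 2.16 CPM at D6 in WT, and 15.2 ± 1.9 and 15.1 ± 2.9 CPM (n = 2) in TKO. In DKO the 9 interaction terms were all above 0 (median 1.14) but 0 were called, of the group or of all genes, 4 of 9 at an unadjusted p under 0.05 (8.02% of all genes), and DESeq2 called Piwil2. Of the 7 tested markers of 2-cell-like cells, 6 had a positive TKO interaction (median 5.81) and 0 were called in Tet2-/-, where 2 had an unadjusted p under 0.05. In the Tet2-/- interaction 4 of 8 mesoderm markers (median -5.01) and 1 of 6 endoderm markers were called negative, and 3 of 12 ESC markers and 2 of 4 neuroectoderm markers positive. In the TKO interaction 2 of 8 mesoderm and 3 of 6 endoderm markers were called negative. The part of these lists in the interaction results was not tested. In Tet1-/- the count was 0, with 0 of 9 at an unadjusted p under 0.05 (7.67% of all genes) and 0 of 9 by DESeq2. The TKO calls of Dazl and Piwil2 held with each library left out, while Ddx4 and Mov10l1 were lost in 7 and Mael in 5 of 24 such fits, so that 2 to 6 genes were called. In Tet2-/- the calls ran from 0, without D0 clone Tet2_KO_3.10, to 6, without D6 WT clone O4.2, and 3 genes were then called in DKO (Dazl, Mael and Piwil2).

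Other genes of the piRNA pathway moved in part with the group. Of 30 listed, 27 were tested at D0, and in Tet2-/- 6 were lower (2.37% of all genes were) and 0 higher, with a median log2 change of -0.34. They include Gpat2 (0.826 against 5.79 CPM in WT, log2 -2.86), a mitochondrial factor of piRNA production, Fkbp6 (-2.71), a cochaperone, Tdrkh (-1.32), which tethers PIWI proteins to mitochondria, and the PIWI gene Piwil1 (-1.30). The edgeR adjusted p-values were 0.00552 to 0.0256 for these 4. In TKO 3 were lower (2.12% of all genes), Dnmt3l (116 against 254 CPM, log2 -1.14), the cofactor of de novo methylation in germ cells, Fkbp6 (-2.65) and Gpat2 (-2.26). In Tet1-/- and DKO edgeR called 0 of 27, with 7 at an unadjusted p under 0.05 in each (12.6% and 14.4% of all genes).

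Over LIF withdrawal in WT, 14 of 28 tested piRNA genes were lower (13.3% of all genes were) and 2 higher (20.7%). Morc1 (log2 -3.69), Pnldc1 (-2.04), which trims piRNA precursors, Rnf17 (-1.68) and Dnmt3l (-2.18) had the smallest adjusted p-values among the lower ones, and the Tudor genes Tdrd7 (log2 3.73, from 1.37 to 18.2 CPM) and Tdrd6 (1.36) were the ones that rose, beside Tdrd5 in the group. Lower calls numbered 11 in Tet1-/- (11.2% of all genes), 8 in DKO (10.6%), 2 in Tet2-/- (6.44%) and 2 in TKO (8.63%). Higher calls numbered 2 in Tet1-/- (19.9% of all genes), 2 in DKO (18.6%), 3 in Tet2-/- (12.7%) and 3 in TKO (16.8%). At D6 Tet2-/- had 3 higher (Pnldc1, Henmt1 and Dnmt3l) and 3 lower (Tdrd7, Exd1 and Gpat2) of 27, where 4.81% and 9.45% of all genes were. In the other knockouts edgeR called 0. At an unadjusted p under 0.05 were 7 (Tet1-/-), 8 (DKO) and 12 (TKO) of 27, as were 12.6%, 14.6% and 23.5% of all genes. The TKO interaction was called positive for 7 of 28 (1.84% of all genes), among them Rnf17 (2.07), Dnmt3l (2.59), Btbd18 (3.01) and Morc1 (2.39). The Tet2-/- interaction was called positive for 4 and negative for 1 of 28 (3.54% and 5.13% of all genes).

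A further list held meiotic and other germline genes (21 of 22 listed in the tables, 20 tested). It was drawn up for CpG-rich promoters, but CpG ratios of its genes are not given here. Of these genes 6 were lower in Tet2-/- at D0 (2.37% of all genes), among them Smc1b (log2 -2.66), the meiotic cohesin, Rpl10l (-1.72), Taf7l (-2.23) and Slc25a31 (-1.91). In TKO Sohlh2 (-3.07), Rpl10l (-2.06) and Smc1b (-1.89) were lower, and in Tet1-/- Smc1b (-2.099) alone. Over LIF withdrawal 10 were lower and 1, Sycp3, higher in WT (13.3% of all genes were lower), 9 lower and 1 higher in Tet1-/- (11.2%), 6 lower and 2 higher in DKO (10.6%), 2 lower and 2 higher in Tet2-/- (6.44%), and 0 lower and 6 higher in TKO (8.63%, with 16.8% higher). None of 22 genes coding for repressors of germline genes, such as E2f6, Mga and Max, was called in any knockout against WT on either day by edgeR. At an unadjusted p under 0.05 were 3 (Tet1-/- on both days, 12.6% of all genes) to 11 (Tet2-/- at D6, 42.9%) of the 22. In WT over LIF withdrawal Trim28 (log2 -1.16) and L3mbtl2 (-1.06) were lower and Yaf2 (1.39) and Dnmt3b (1.63) higher.

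Across the 24 libraries, as deviations of log2 CPM from the mean of the day, the genes varied together to different degrees. The correlation of a gene with the mean of the other 8 was 0.939 for Mael, 0.905 for Mov10l1, 0.882 for Dazl, 0.814 for Tex101, 0.772 for Piwil2 and 0.764 for Ddx4. Tdrd1 (0.576), Tdrd9 (0.442) and Tdrd5 (0.310) followed less. The closest pair was Ddx4 with Mov10l1 (0.943; 0.941 at D0 and 0.952 at D6), and the lowest value was Ddx4 with Tdrd5 (-0.06; 0.595 at D0 and -0.29 at D6). Libraries of 1 genotype, and of 1 clone on 2 days, share their source, so these are descriptions. The 5 genes outside the group whose pattern was most like its mean were Mageb16 (0.937), Taf7l (0.916), Aass (0.907), Slc25a31 (0.896) and Hat1 (0.893), of which Taf7l and Slc25a31 were also in the list of other germline genes.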

How the data were processed

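RNA-seq of 24 libraries was analysed from 2 tables, 1 per day, of read counts per gene that the authors deposited. Per the labels, RNA was poly(A)-selected with ERCC RNA added, and paired-end reads were mapped to mm9 with STAR 2.5.1. The names of the deposited tables point to featureCounts; its version and strand setting are not given in the sources used here, and the tables used hold no ERCC lines, so values are relative to each library's total and a change in total RNA per cell would not show. Where a symbol has several lines (4911 of 22926 symbols), the uppermost was taken. Total counts were 21729346 to 37290208 at D0 and 18400463 to 34219640 at D6.

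edgeR 4.0.16 (R 4.3.3) fitted the quasi-likelihood model with TMM scaling after filterByExpr (minimum count 10): 12 libraries per day for genotype comparisons, and all 24 for D6 against D0 and the interaction. Calls needed a Benjamini-Hochberg adjusted p under 0.05 over all tested genes and a change past 2-fold. SE is the log2 fold change divided by the root of the F statistic. CPM use TMM factors of all 24 libraries, and log2 CPM a pseudocount of 1. Clones of the same name pair the 2 days (same-clone correlation of deviations 0.0813 to 0.193). The fits were tested on simulated data. Alternatives were DESeq2 1.42.0, library totals, DESeq2 size factors, no filter, the highest line per symbol, blocks, a joint fit and each library left out.

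The genes and the lists were chosen with earlier results of these data known. All 10 genes are named, and from other lists at most 4 called genes per direction and comparison with the smallest adjusted p. RefSeq promoters and the GENCODE M1 annotation gave sequences and positions. In the lists, Spocd1 and Meioc were not analysed here.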

Additional observations from a re-analysis of the deposited data

Results flagged for a closer look

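A knockout effect that differed between D0 and D6 by the interaction test drew attention for 8 gene and genotype pairs. In TKO these were Dazl (log2 3.35), Piwil2 (2.89), Mael (2.69), Mov10l1 (1.92) and Ddx4 (1.596), and in Tet2-/- they were Mov10l1 (2.06), Piwil2 (1.79) and Ddx4 (1.71). All 8 values are above 0, and all rest on the same 3 WT clones at each day, so they are not independent of each other. Groups of 2 or 3 clones were too small for a search for single outlying libraries.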

How the results depend on the processing

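Over 25 comparisons the number of called genes of the group was recomputed 158 times under other settings and stayed within 1.5 times in 144. With DESeq2 the count became 1 in Tet1-/- (D6 against WT), 5 in DKO and 6 in TKO on the same day, 2 for Tet2-/- against Tet1-/- at D6, 5 in the Tet2-/- interaction and 1 in the DKO interaction. Without a filter on low counts it was 1 in TKO against WT at D6. With library totals it was 2 in DKO and 4 in TKO for D6 against D0. With clone as a replicate block it was 4 in TKO for D6 against D0 and 6 in the Tet2-/- interaction. In the joint fit it was 0 in TKO at D0, and 5 in DKO and 6 in TKO at D6. The cause was not tested. Replicate numbers shared between genotypes are only names (correlation of deviations -0.377 to 0.312), and a replicate block on them left 16 of 16 counts within 1.5 times.

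With 1 library left out, the count ran from 0 to 6 for Tet2-/- against WT at D0, 0 to 5 for TKO against DKO at D0, 0 to 5 for Tet2-/-, 0 to 2 for DKO and 0 to 6 for TKO against WT at D6, 0 to 2 for Tet2-/- against Tet1-/- and 1 to 3 for DKO against Tet2-/- at D6, 2 to 4 in DKO and in TKO for D6 against D0, and 0 to 6 (Tet2-/-), 0 to 3 (DKO) and 2 to 6 (TKO) for the interactions. No called value changed sign, in 301 under other settings (12 lost the call) and 948 with a library left out (78 lost it). Groups of 2 clones, and under 20 counts in most libraries for Tdrd9 and Tex101, limit these calls.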
